A study of Mus musculus with 4 samples.

Results

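The genes described here are those of the mouse major histocompatibility complex (MHC), which carries the name H2, together with their peptide processing genes. They were taken by name: every gene of the deposited table whose symbol starts with H2-, plus B2m, Cd74, Ciita, Nlrc5, Tap1, Tap2, Tapbp, Psmb8, Psmb9 and Psmb10. This gave 53 of 43346 genes, of which 48 lie on chromosome 17. By role, 32 belong to class I, 14 to class II and 6 to antigen processing, and H2-Ke6, a steroid dehydrogenase gene inside the locus, stands apart. RNA with a polyA tail was sequenced from the lung. Libraries B and E came from mice with an IL-33 transgene, of the genotype IL-33 over-expression, and libraries D and F from control mice. The source labels name epithelial cells, whereas the series title names lung tissue. The sources used here give no strain, age, sex, transgene promoter or number of mice per library. P-values therefore measure only the spread between these libraries, which may be technical. The question posed by the design is which expression changes go with the IL-33 transgene.

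MHC class I molecules pair a heavy chain with β2-microglobulin, the B2m product, and show peptides of the cell's own proteins to CD8 T cells. The peptides are cut by proteasomes that can carry the inducible subunits of Psmb8, Psmb9 and Psmb10, pumped into the endoplasmic reticulum by the Tap1-Tap2 transporter and loaded with the help of tapasin, the Tapbp product. Class II molecules, made of an α and a β chain, are guided by the invariant chain, the Cd74 product, and show peptides of ingested proteins to CD4 T cells. Dendritic cells, B cells and macrophages carry them, and in the lung alveolar type 2 cells do so as well. Ciita encodes the master coactivator of class II genes and Nlrc5 that of class I genes.

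Promoter sequences are shown for 7 genes, because the class II genes below varied together across the libraries and the class I pair H2-Q6 and H2-Q7 had some of the highest fold changes, with H2-D1 shown for comparison. They come from RefSeq (GRCm38.p6), which held 40 promoters of 37 of the 53 genes, and each covers 250 bases before to 50 bases after the gene's start, written 5′ to 3′ on the gene's strand. H2-Aa is at chr17:34287774-34288073 on the minus strand. On the plus strand are H2-Eb1 at chr17:34305617-34305916, H2-DMb1 at chr17:34152941-34153240, H2-DMb2 at chr17:34144999-34145298, H2-D1 at chr17:35262844-35263143, H2-Q6 at chr17:35424600-35424899 and H2-Q7 at chr17:35438905-35439204. Capitals mark matches on either strand to CCAAT (read in reverse, the Y box of class II promoters), to TGACG (the core of a CREB site), and to GGG and TTCCC with 2 free bases between them (a κB type site). They also mark AAC and GATGATG with 1 free base between them (an X box type site, with letters chosen after these promoters were seen).
H2-Aa: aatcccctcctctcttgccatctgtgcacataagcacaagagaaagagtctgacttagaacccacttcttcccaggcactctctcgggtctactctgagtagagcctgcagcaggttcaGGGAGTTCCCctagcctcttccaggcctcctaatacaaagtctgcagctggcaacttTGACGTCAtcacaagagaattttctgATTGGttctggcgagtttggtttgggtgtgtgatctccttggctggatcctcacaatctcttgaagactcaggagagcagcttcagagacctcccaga
H2-Eb1: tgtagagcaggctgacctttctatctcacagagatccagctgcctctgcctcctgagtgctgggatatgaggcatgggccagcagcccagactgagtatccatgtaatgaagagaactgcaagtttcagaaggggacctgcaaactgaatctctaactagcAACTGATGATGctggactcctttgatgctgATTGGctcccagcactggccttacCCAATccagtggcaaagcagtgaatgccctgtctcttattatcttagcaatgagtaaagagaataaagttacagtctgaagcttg
H2-DMb1: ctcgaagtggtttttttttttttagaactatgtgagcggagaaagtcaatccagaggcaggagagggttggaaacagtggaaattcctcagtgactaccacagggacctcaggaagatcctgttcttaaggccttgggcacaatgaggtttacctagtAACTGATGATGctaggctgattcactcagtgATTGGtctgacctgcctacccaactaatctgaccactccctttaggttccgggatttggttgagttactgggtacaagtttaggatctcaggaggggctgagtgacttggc
H2-DMb2: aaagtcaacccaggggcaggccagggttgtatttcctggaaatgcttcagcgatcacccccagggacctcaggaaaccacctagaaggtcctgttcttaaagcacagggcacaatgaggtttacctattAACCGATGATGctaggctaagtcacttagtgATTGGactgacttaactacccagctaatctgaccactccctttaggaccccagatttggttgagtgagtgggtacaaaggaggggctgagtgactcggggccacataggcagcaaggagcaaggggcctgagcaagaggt
H2-D1: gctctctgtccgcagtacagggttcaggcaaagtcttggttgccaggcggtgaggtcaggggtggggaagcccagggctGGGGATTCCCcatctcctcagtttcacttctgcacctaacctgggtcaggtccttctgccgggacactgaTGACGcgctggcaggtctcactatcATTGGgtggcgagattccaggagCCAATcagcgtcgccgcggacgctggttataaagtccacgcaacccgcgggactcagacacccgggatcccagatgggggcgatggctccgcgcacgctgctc
H2-Q6: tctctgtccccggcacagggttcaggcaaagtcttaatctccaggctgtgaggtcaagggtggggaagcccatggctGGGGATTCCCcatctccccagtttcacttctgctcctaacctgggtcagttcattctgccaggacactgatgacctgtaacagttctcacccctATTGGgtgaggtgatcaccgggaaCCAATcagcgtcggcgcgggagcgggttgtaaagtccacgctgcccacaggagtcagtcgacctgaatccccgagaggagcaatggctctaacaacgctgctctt
H2-Q7: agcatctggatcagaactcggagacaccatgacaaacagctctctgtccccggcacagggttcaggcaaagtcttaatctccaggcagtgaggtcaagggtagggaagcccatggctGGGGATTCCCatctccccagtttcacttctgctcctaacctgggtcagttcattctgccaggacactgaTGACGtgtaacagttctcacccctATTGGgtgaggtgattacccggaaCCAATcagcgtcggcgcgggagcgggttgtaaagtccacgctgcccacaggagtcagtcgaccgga

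A CCAAT match stood in 8 of 9 class II promoters, 22 of 25 class I promoters and 3 of 5 promoters of antigen processing genes, against 37.4% of all 32851 promoters. The X box type letters stood in the class II promoters of H2-Eb1, H2-DMb1 and H2-DMb2 and in 20 promoters in all (0.0609%). As the letters were chosen after these promoters were seen, their presence there was fixed in advance. The κB letters matched in 6 class I promoters, among them H2-D1, H2-Q6 and H2-Q7, in 2 class II promoters, among them H2-Aa, and in 1.75% of all promoters. TGACG, which reads on both strands of the H2-Aa stretch TGACGTCA, matched in 13 class I and 1 class II promoters, against 20.8% of all. An interferon-stimulated response element, spelled as GAAA, 2 free bases and GAAA, was also searched and matched in 3 class I promoters, 0 class II promoters and 3.44% of all. Only this exact spelling was searched, so promoters without a match, among them H2-D1, H2-Q6 and H2-Q7, may hold related elements spelled otherwise. These matches describe letters in the windows, not binding. They count promoters and not genes. H2-K1 and H2-M9 each have 2 windows that overlap, and the windows of Tap1 and Psmb9 share 275 of 300 bases, so the matches are not independent. H2-DMa has 2 windows that lie apart, at chr17:34122582-34122881 and chr17:34125268-34125567. Both lie before the gene's deposited start of 34135182, and the first is the class II promoter without a CCAAT match. In a local alignment the H2-Q6 and H2-Q7 promoters were identical in 254 of 261 columns (97.3%), with H2-D1 identical to H2-Q6 in 80.9% and to H2-Q7 in 82.9% of aligned columns. The H2-DMb1 and H2-DMb2 promoters were identical in 208 of 270 columns.

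Counts per library ran from 76120696 to 87723745, and the members took 0.267% to 0.338% of them. Il33 stood at 1723 and 874 CPM (counts per 1000000 of the TMM-scaled library size) in transgenic libraries B and E, against 117 and 108 in the control libraries D and F. The summed level of Y-linked genes, relative to D, was 0.551% in B and 9.11% in E, against 47.5% in F, so each control exceeded either transgenic library. Sex is not in the labels, and sex and genotype cannot be told apart here. Epithelial markers summed to 1758 and 1168 CPM in the transgenic libraries and 1476 and 1157 CPM in the controls. Endothelial markers summed to 3892 and 6213 CPM in transgenic libraries and 5137 and 6793 CPM in controls, so endothelial RNA was present in every library. Fibroblast and smooth muscle markers summed to 944 and 1954 CPM in transgenic libraries and 1409 and 2315 CPM in controls. The values below are thus not those of epithelial cells alone. Libraries B and D thus had more epithelial and less endothelial signal than E and F, across the genotypes. In such bulk libraries fewer cells of a type and less RNA per cell cannot be told apart.

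No member passed the test. Of the 53, 47 had a count in any library and 40 were abundant enough to be tested. Among these 40, 0 passed an adjusted p of 0.05 in edgeR's quasi-likelihood test, as did 0 of the 20872 genes tested (0%), while DESeq2 and limma-voom called 0 members and 0.00479% and 0% of all genes. Il33 itself, with a log2 fold change of 3.53 (SE 0.37), did not pass edgeR's test either. Missing that test, with 2 libraries per group, therefore does not show that a gene was unchanged. Values of 2 members, H2-Q7 and Nlrc5, had an unadjusted p under 0.05, both higher in transgenic libraries, where 1.29% of all genes did in either direction and 0.896% with higher values. A log2 fold change above 0 was found for 29 of 40 members, against 49.6% of all genes. The transgenic pair lay above both controls for 11 of the 40 (27.5%), against 11.9% of all genes tested, and below both for 0, against 12.0%. A gene can pass the filter on low counts through the group in which it is higher, and the genes share regulators and may in part share reads, so these counts are a description. The median log2 fold change was 0.11 over 22 class I genes, 0.23 over 11 class II genes and 0.00166 over 6 antigen processing genes, against -0.00128 over all genes. With each library's Y-linked share in the fit these medians were 0.28, 0.68 and 0.0469. As that share itself separated the genotypes, its part and that of the genotype cannot be told apart. Values from that fit, here and below, are thus not corrected for sex. The class II median was 0.04 without B, 0.42 without E, 0.48 without D and 0.05 without F.

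Per coding length, the deposited RPKM values put Cd74 first, at 557 and 442 RPKM in transgenic and 498 and 394 RPKM in control libraries. B2m followed at 352 and 342 RPKM in transgenic against 319 and 313 RPKM in control libraries. H2-D1, a classical class I heavy chain gene, came next at 191 and 201 RPKM in transgenic libraries, against 184 and 175 RPKM in controls. The class II α chain gene H2-Aa had 137 and 105 RPKM in transgenic libraries and 115 and 89.3 RPKM in controls. H2-K1, the other classical heavy chain gene, had 78.7 and 66.4 RPKM in transgenic libraries, against 64.9 and 58.7 RPKM in controls. The ranges of these 5 genes over the 4 libraries did not overlap, so their order held in each library, while the next gene, H2-Ab1, at 49.8 to 70.0 RPKM, overlapped with H2-K1. The antigen processing genes averaged 3.62 RPKM (Psmb9) to 35.5 RPKM (Tapbp) over the 4 libraries.

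**Figure D1:**
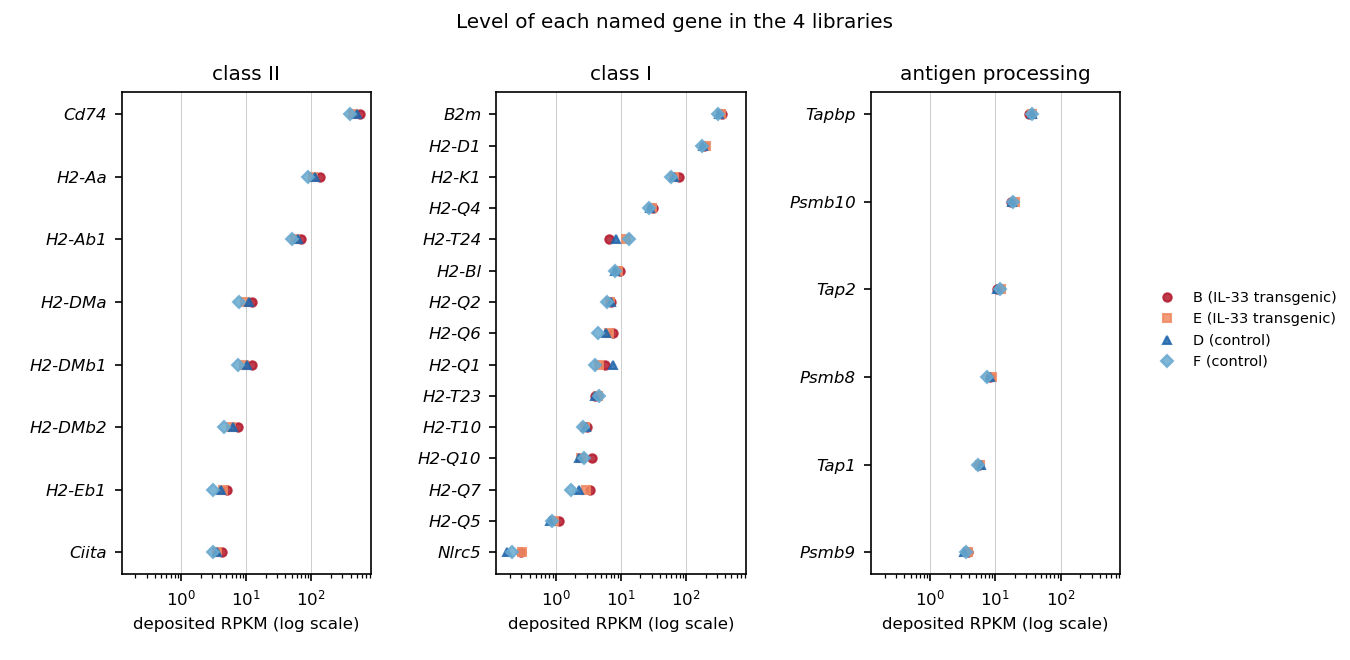
Deposited RPKM (log axis) of the 29 class II, class I and antigen processing genes whose value is given for every library, 1 symbol per library. The 4 libraries of a gene lie close together beside the range between genes, from 0.252 RPKM on average for Nlrc5 to 473 RPKM for Cd74.

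The class II genes varied together from library to library, in an order that did not separate the genotypes. All 11 tested had a log2 fold change above 0, 2 of the 11 (18.2%) lay higher in both transgenic libraries, where 11.9% of all genes did, and none passed the test. Every class II gene averaging at least 10 CPM (7 of 7) had its highest value in B and its lowest in F, with D above E in between, an order found in 2103 of all genes tested (10.1%). In none of these 7 did the groups separate.

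Cd74 (ENSMUSG00000024610, chromosome 18, 60803848 to 60812646, GRCm38), the invariant chain gene, had 977 and 749 CPM in transgenic libraries, against 877 and 672 CPM in controls. The transgenic library B was highest, but the other transgenic library lay under control D, so the groups overlapped. The means were 863 ± 161 CPM in transgenic libraries, against 774 ± 145 CPM in controls (SD, n = 2 each), with a log2 fold change of 0.16 (SE 0.22), which turned to -0.05 without B and -0.02 without F.

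H2-Aa (ENSMUSG00000036594, chromosome 17, 34282744 to 34287827) had 319 and 235 CPM in transgenic libraries and 269 and 203 CPM in controls. Its partner β chain gene H2-Ab1 (ENSMUSG00000073421, chromosome 17, 34263209 to 34269418) had 143 and 111 CPM in transgenic libraries, against 126 and 98.7 CPM in controls. Both chains of the H2-A molecule thus had the same order, with groups that overlapped. The log2 fold change of H2-Aa was 0.23 (SE 0.22), and the ratios of single libraries ran from -0.19 on the log2 scale for E over D to 0.65 for B over F. H2-Ab1 had a log2 fold change of 0.17 (SE 0.19). Without library B those of both genes turned, to -0.0029 for H2-Aa and -0.02 for H2-Ab1.

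The H2-DM genes encode the editor that exchanges peptides on class II molecules. H2-DMa had 24.9 and 18.8 CPM in transgenic libraries, against 22.8 and 15.6 CPM in controls (log2 fold change 0.19, SE 0.24). It encodes the α chain, and its direction turned without B (-0.03) or without F (-0.06). H2-DMb1 had 22.8 and 16.6 CPM in transgenic libraries, against 19.3 and 13.6 CPM in controls (0.26, SE 0.24). H2-DMb2 had 16.2 and 12.1 CPM in transgenic libraries, against 13.6 and 9.54 CPM in controls (0.29, SE 0.24). Both encode β chains and hold the X box type letters in their promoters. Of the 50-base stretches of H2-DMb1 transcripts, 22.7% also occur in H2-DMb2, so their counts may share reads. Their fold changes kept their sign without each library, but came down to 0.01 (H2-DMb1, without B) and 0.06 (H2-DMb2, without F).

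Ciita (ENSMUSG00000022504, chromosome 16, 10488178 to 10527564), the coactivator gene, had 28.4 and 22.5 CPM in transgenic libraries and 23.6 and 19.6 CPM in controls. It had the same order as the class II chain genes, with B highest and F lowest, and the groups overlapped. Its log2 fold change was 0.23 (SE 0.17), and 0.06 without B. The gene overlaps Dexi, which averaged 13.4 CPM, over 25034 bases of the table's coordinates.

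Among the less abundant class II genes, H2-Eb1 (chromosome 17, 34305877 to 34316199), the β chain gene of the H2-E molecule, had 7.40 and 6.25 CPM in transgenic libraries, against 6.14 and 4.46 CPM in controls. Here both transgenic libraries lay above both controls, E by little over D. The log2 fold change was 0.36 (SE 0.23, unadjusted p = 0.168), and 0.15 without F. The α chain counterpart H2-Ea-ps, named as a pseudogene, had 7.58 and 4.43 CPM in transgenic libraries and 5.84 and 4.28 CPM in controls, with the groups overlapping. H2-Oa, a chain of the H2-DM inhibitor H2-O, had 0.463 and 0.260 CPM in transgenic libraries, against 0.149 and 0.258 CPM in controls (0.81, SE 0.52). Its transgenic libraries lay above both controls, E only barely, and H2-Eb2 was also tested at under 1 CPM, with 12 to 15 counts per library. H2-Ob, H2-Pa and H2-Pb had at most 17 counts in any library and were not tested.

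**Figure D2:**
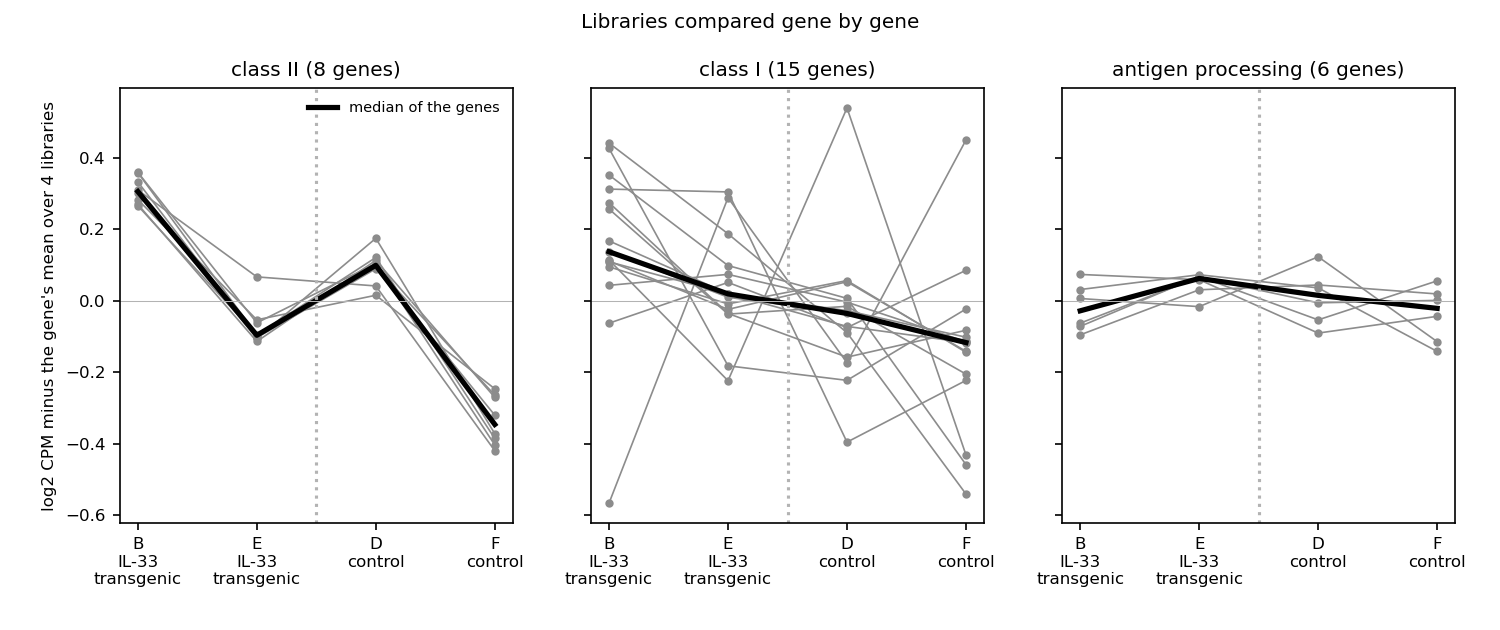
Log2 CPM of each gene minus its mean over the 4 libraries, by library, for 8 class II, 15 class I and 6 antigen processing genes. Each grey line is 1 gene and the black line their median. The class II lines run together, higher in B and D than in E and F for every gene but H2-Eb1, whose E value lies just above D, whereas class I lines spread and antigen processing lines stay near 0.

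Markers of cell types that carry class II were set beside these values. The alveolar type 2 markers summed to 57766 and 37958 CPM in the transgenic libraries and 47775 and 34613 CPM in the controls, the same order as the class II sum of 1547 and 1177 CPM in transgenic libraries and 1364 and 1041 CPM in controls. The epithelial sum had that order too, though Krt8, Krt18 and Krt19 were each higher in F than in E. So did the alveolar type 1 and airway sum, at 11191 and 7130 CPM in transgenic libraries and 9763 and 6973 CPM in controls. Most of the latter was Scgb1a1, at 9197 and 5877 CPM in transgenic libraries and 7464 and 5695 CPM in controls. The other markers of that list did not have this order, with Ager, Hopx, Aqp5 and Scgb3a2 highest in D and Foxj1 highest in F. Of the 8 type 2 markers, 7 had values above 0 (median log2 fold change 0.23), and 0 separated the groups. The class II sum divided by the type 2 marker sum, a ratio chosen after the values were seen, was 0.0268 and 0.0310 in transgenic and 0.0286 and 0.0301 in control libraries. Divided by the 6 epithelial markers it was 0.880 and 1.01 in transgenic and 0.924 and 0.90 in control libraries. On the type 2 scale the transgenic libraries lay on either side of the controls. The part of epithelial content in the class II values was not tested.

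Leukocyte markers had another order. The 5 pan-leukocyte markers summed to 57.9 and 89.2 CPM in transgenic libraries, against 24.7 and 50.2 CPM in controls, all 5 with values above 0 (median 0.97; 49.6% of all genes) and 4 higher without overlap (11.9% of all genes). Ptprc, the CD45 gene that defines leukocytes, had 20.6 and 30.0 CPM in transgenic libraries, against 8.21 and 16.5 CPM in controls. It was highest in E and lowest in D, whereas the class II genes were higher in D than in E. The class II sum divided by the pan-leukocyte sum was 26.7 and 13.2 in transgenic and 55.2 and 20.8 in control libraries.

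Dendritic cell markers, 4 of 7 tested with values above 0 and 3 below, summed to 77.8 and 119 CPM in transgenic libraries, against 87.1 and 119 CPM in controls. Zbtb46 and Clec9a, both below 0, made up most of it. Zbtb46 had 35.8 and 49.1 CPM in transgenic libraries and 44.5 and 56.3 CPM in controls. Clec9a had 31.6 and 51.5 CPM in transgenic libraries and 38.6 and 53.0 CPM in controls. Both had the order of the endothelial marker sum, highest in F and lowest in B, and both exceeded Ptprc in every library. The cells these 2 signals came from were not tested. The sum thus says little of the less abundant dendritic cell markers, of which 2 lay higher and 1 lower without overlap. Macrophage and monocyte markers, 9 of 10 above 0, summed to 94.5 and 166 CPM in transgenic libraries, against 60.0 and 109 CPM in controls. B cell markers, 6 of 6 tested above 0, summed to 13.3 and 11.5 CPM in transgenic libraries and 10.04 and 8.73 CPM in controls. Most of that sum was Cd79b, a B cell receptor chain gene, at 11.8 and 7.84 CPM in transgenic libraries and 8.81 and 6.29 CPM in controls, and the other 6 markers summed to 1.44 and 3.63 CPM in transgenic libraries and 1.23 and 2.44 CPM in controls, so that neither separated the groups. T and natural killer cell markers, 9 of 9 above 0, summed to 7.74 and 6.09 CPM in transgenic libraries, against 3.95 and 3.31 CPM in controls, and 6 of the 9 lay higher without overlap. Of the macrophage and monocyte markers 2 lay higher and 1 lower without overlap, and of the B cell markers 0. Among all genes, 49.6% lay above 0, while 11.9% lay higher and 12.0% lower without overlap. No marker passed the test. The B cell marker Pax5 was at 0 in B and D and the plasmacytoid dendritic cell marker Siglech was at 0 in B, while every other leukocyte marker had counts in all 4 libraries. The part of these cells in the MHC values was not tested.

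**Figure D3:**
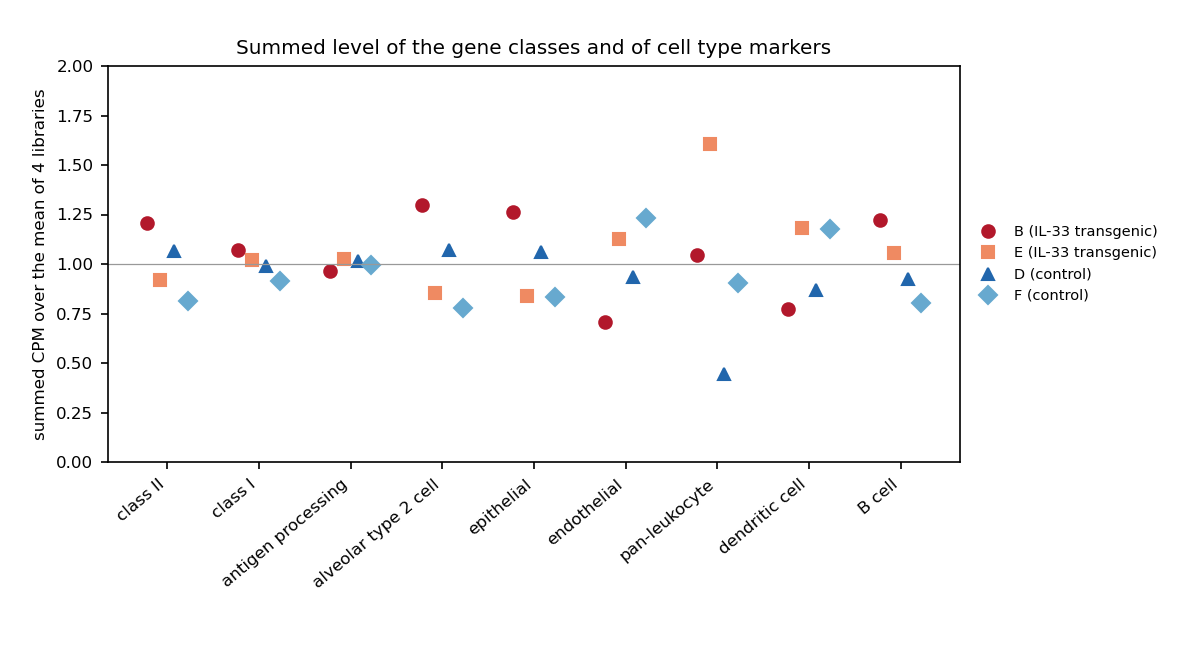
Summed CPM of each gene class and marker list in each library, divided by the mean of the 4 libraries (linear axis from 0). The class II sum (1.21 and 0.918 in B and E, 1.06 and 0.812 in D and F) has the order of the alveolar type 2 sum (1.30 and 0.852 in B and E, 1.07 and 0.777 in D and F). The epithelial sum (1.27 and 0.840 in B and E, 1.06 and 0.833 in D and F) has it too. The pan-leukocyte sum is highest in E at 1.61 and lowest in D at 0.446.

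The classical class I heavy chain genes H2-D1 and H2-K1 were abundant, and neither passed the test. Of 22 class I genes tested, 14 had a log2 fold change above 0, 8 lay higher in both transgenic libraries (11.9% of all genes did) and 0 lower, and none passed the test. H2-D1 (ENSMUSG00000073411, chromosome 17, 35262730 to 35267499) had 611 and 624 CPM in transgenic libraries and 591 and 548 CPM in controls. The transgenic libraries lay above both controls by a small margin. The means were 617 ± 9.29 CPM in transgenic libraries, against 569 ± 30.9 CPM in controls (SD, n = 2 each), with a log2 fold change of 0.12 (SE 0.13).

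H2-K1 (ENSMUSG00000061232, chromosome 17, 33996017 to 34000333), the second classical heavy chain gene, had 255 and 208 CPM in transgenic libraries and 211 and 185 CPM in controls. Its groups overlapped, in the class II order, with a log2 fold change of 0.22 (SE 0.15) that was 0.07 without B. B2m (ENSMUSG00000060802, chromosome 2, 122147686 to 122153083) had 377 and 354 CPM in transgenic libraries, against 343 and 326 CPM in controls. Its groups did not overlap, and the log2 fold change of 0.13 (SE 0.12) missed the test.

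Among the members averaging at least 1 CPM, the nonclassical class I gene H2-Q7 (ENSMUSG00000060550, chromosome 17, 35439155 to 35443773) had the highest log2 fold change. It belongs to the genes of the Qa-2 antigen. H2-Q7 had 17.9 and 15 CPM in transgenic libraries, against 12.4 and 9.06 CPM in controls. Both transgenic libraries were above both controls, with means of 16.5 ± 2.04 CPM in transgenic libraries and 10.7 ± 2.36 CPM in controls (SD, n = 2 each), 1.53-fold apart. The log2 fold change was 0.62 (SE 0.20, unadjusted p = 0.0276, adjusted p = 1 in edgeR's test), and it ran from 0.41 without F to 0.86 without D and was 1.16 with each library's Y-linked share in the fit.

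H2-Q6 (ENSMUSG00000073409, chromosome 17, 35424850 to 35430055), a second Qa-2 gene with a nearly identical promoter, had 19.9 and 16.7 CPM in transgenic libraries, against 15.7 and 11.3 CPM in controls. The order of the libraries was that of H2-Q7, with control D close under transgenic E. The log2 fold change was 0.44 (SE 0.20, unadjusted p = 0.0802), and it ran from 0.22 without F to 0.69 without D. Of the 50-base stretches in H2-Q6 transcripts 35% also occur in another gene, 13.9% in H2-Q7. Of those of H2-Q7 26.5% occur in another gene, 14.0% in H2-Q10 and 6.31% in H2-Q6. The counts of this pair may thus share reads, with each other and with other genes, and may not be independent.

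Nlrc5 (ENSMUSG00000074151, chromosome 8, 94472763 to 94527272), the class I coactivator gene, was low at 2.86 and 2.84 CPM in transgenic libraries and 1.75 and 1.97 CPM in controls. These are 216 and 252 counts, against 141 and 168 counts in controls. The transgenic libraries lay together and above both controls, 1.53-fold in the mean. The log2 fold change was 0.62 (SE 0.21, unadjusted p = 0.0317, adjusted p = 1), between 0.53 and 0.70 with any library left out, and 0.40 with the Y-linked share in the fit. Unlike the H2-Q pair it has almost no sequence in common with other genes, 0.338% of its 50-base stretches.

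Other nonclassical class I genes differed less. H2-Q4 had 102 and 93 CPM in transgenic libraries, against 90.1 and 85.4 CPM in controls, without overlap (log2 fold change 0.15, SE 0.10). H2-Bl, the blastocyst MHC gene, had 20.5 and 18.5 CPM in transgenic libraries and 17.3 and 16.8 CPM in controls, without overlap (0.19, SE 0.12). H2-Q5, at 2.21 and 1.78 CPM in transgenic libraries, against 1.64 and 1.73 CPM in controls, also separated (0.25, SE 0.24). None of these differences passed the test, and the margin between E and the higher control was small in each. H2-Q4 and H2-Q5 share 36.4% of their 50-base stretches each with other genes.

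The groups overlapped in the remaining class I genes. H2-Q2 had 19.5 and 18.2 CPM in transgenic libraries and 19.0 and 16.5 CPM in controls. H2-T23, which encodes Qa-1, had 14.5 and 15.7 CPM in transgenic libraries and 14.4 and 16 CPM in controls (log2 fold change -0.01, SE 0.13). H2-T10, whose product is known as a ligand of some γδ T cells, had 12.8 and 11.7 CPM in transgenic libraries and 12.3 and 10.8 CPM in controls. Each of these genes differed between the group means by less than the larger of its group SDs. Of the 50-base stretches of H2-T10, 50.4% also occur in other genes, 31.7% in H2-T22, so its counts may share reads.

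Libraries of the same genotype differed widely in 3 class I genes. H2-Q10, known for a secreted molecule of the liver, had 19.7 CPM in transgenic library B and 12.9 in E, against 12.6 and 14.5 CPM in controls, and its log2 fold change of 0.27 (SE 0.23) turned to -0.06 without B. H2-Q1 had 20.2 and 16 CPM in transgenic libraries, against 27.2 CPM in control D and 13.9 in control F, and its -0.18 (SE 0.34) turned to 0.39 without D. H2-T24 had 17.7 and 31.9 CPM in transgenic libraries, against 23.2 and 35.7 CPM in controls (-0.25, SE 0.35). H2-T24 was high in E and F and low in B and D, the order of the endothelial marker sum and the reverse of that of the class II genes, and the part of endothelial content in it was not tested.

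The class I genes between 1 and 10 CPM whose groups overlapped were H2-K2, H2-Q3, H2-T22, H2-M3 and H2-M5. H2-M3, known for presenting formylated peptides, had the highest mean of these, with 7.93 and 7.26 CPM in transgenic libraries and 6.85 and 7.28 CPM in controls. Log2 fold changes of the 5 ran from -0.23 (H2-Q3) to 0.10 (H2-M3). H2-T3 and H2-M2 were tested at under 1 CPM on average. All other H2-M genes had at most 8 counts in any library, and 6 of them were at 0 throughout.

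**Figure D4:**
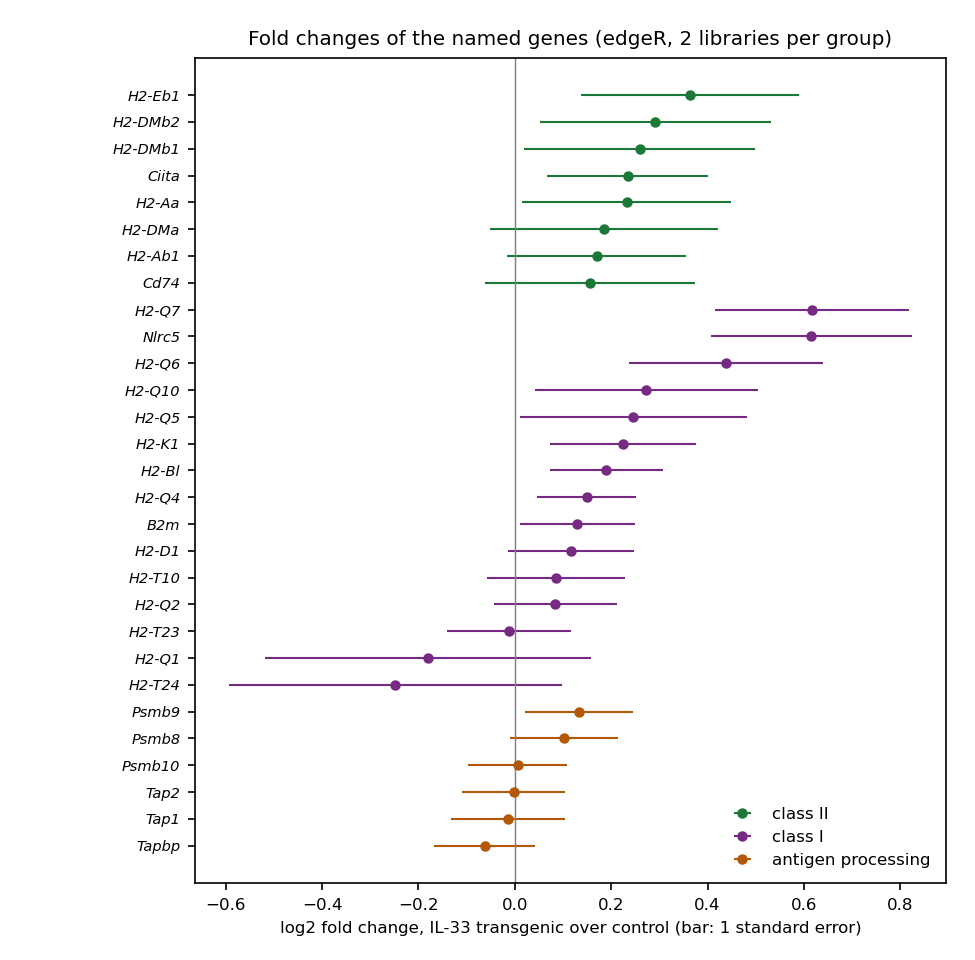
Log2 fold change of transgenic over control libraries for 29 class II, class I and antigen processing genes (edgeR, 2 libraries per group), with bars of 1 standard error. H2-Q7 and Nlrc5 lie at 0.62, class II genes between 0.16 and 0.36, and antigen processing genes between -0.06 and 0.13.

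The antigen processing genes were near level in all 4 libraries. Of 6 tested, 3 had a log2 fold change above 0 and 3 below, and none passed the test. Tap1 (chromosome 17, 34187553 to 34197225) had 38.6 and 38.0 CPM in transgenic libraries, against 41.9 and 35.5 CPM in controls (log2 fold change -0.01, SE 0.12). Tap2, the second chain of the transporter, had 49.9 and 55.0 CPM in transgenic libraries and 50.5 and 54.5 CPM in controls (-0.00223, SE 0.11). The transgenic libraries lay between the controls for Tap1 and on either side of them for Tap2. Tapbp, the tapasin gene, had 134 and 147 CPM in transgenic libraries and 148 and 145 CPM in controls (-0.06, SE 0.10).

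Of the inducible proteasome subunit genes, Psmb8 had 28.1 and 28.9 CPM in transgenic libraries, against 28.2 and 24.9 CPM in controls (log2 fold change 0.10, SE 0.11). Psmb10 had 27.9 and 30.5 CPM in transgenic libraries and 29.0 and 29.1 CPM in controls (0.01, SE 0.10). Psmb9 had 17.1 and 16.9 CPM in transgenic libraries, against 15.2 and 15.8 CPM in controls (0.13, SE 0.11). Of the 6 genes, Psmb9 had groups that did not overlap, with means 1.10-fold apart. It is a neighbour of Tap1, and their RefSeq promoter windows, on opposite strands, share 275 of 300 bases. Some counts may be shared here too: 23.2% of the 50-base stretches of Tapbp, 11.9% of those of Psmb8 and 11.6% of those of Tap2 occur in other genes. H2-Ke6 had 20.6 and 19.4 CPM in transgenic libraries and 22.0 and 17.2 CPM in controls, and 70.5% of its 50-base stretches also occur in the overlapping gene Gm20427.

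Other genes of the pathways were taken as lists and 0 of their members passed. Of 12 class I and peptide loading partners, 5 had a log2 fold change above 0 and 7 below (median -0.00524), with 1 gene separated in each direction, where 11.9% of all genes lay higher and 12.0% lower without overlap. The CD1d gene Cd1d1 had 10.2 and 12.0 CPM in transgenic libraries, against 12.4 and 13.7 CPM in controls (-0.24, SE 0.15). Erap1, which trims peptides for class I, had 110 and 103 CPM in transgenic libraries and 97.4 and 99.5 CPM in controls (0.11, SE 0.10). Those were the genes that separated. The calreticulin gene Calr, next by p, had 683 and 606 CPM in transgenic libraries, against 726 and 663 CPM in controls.

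Of 17 class II processing genes and regulators, 12 lay above 0 and 5 below (median 0.07), 4 separated upward and 3 downward, against 11.9% and 12.0% of all genes. Ctss encodes cathepsin S, the protease that trims the invariant chain, and had 19.6 and 34.6 CPM in transgenic libraries, against 7.77 and 19.8 CPM in controls (0.98, SE 0.50). Its fold change ran from 0.45 without D to 1.80 without F and turned to -0.41 with the Y-linked share in the fit. Its order, highest in E and lowest in D, was that of Ptprc at both ends and not that of Cd74. March1, the ubiquitin ligase gene that removes class II from the surface, had 0.953 and 1.87 CPM in transgenic libraries and 0.633 and 0.904 CPM in controls (0.88, SE 0.43; 0.30 without E). Ctsl, the cathepsin L gene, had 97.1 and 105 CPM in transgenic libraries and 109 and 117 CPM in controls (-0.17, SE 0.10). The RFX subunit gene Rfx5 had 30.9 and 27.1 CPM in transgenic libraries, against 27.0 and 27.0 CPM in controls (0.10, SE 0.11).

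Of 19 genes of the interferon γ axis, which induces both MHC classes, 9 lay above 0 and 10 below (median -0.03), with 1 gene separated in each direction, against 11.9% higher and 12.0% lower of all genes. Irf8 had 5.88 and 7.29 CPM in transgenic libraries and 4.38 and 4.54 CPM in controls (0.56, SE 0.19, unadjusted p = 0.0311). It encodes a transcription factor of myeloid cells, and its transgenic libraries lay above both controls, as the pan-leukocyte sum did. Irf1 had 158 and 110 CPM in transgenic libraries, against 181 and 170 CPM in controls (-0.39, SE 0.19). This interferon-induced factor was below both controls in both transgenic libraries, by -0.16 on the log2 scale without E and -0.67 without B. Ifng itself had 0.768 and 0.0677 CPM in transgenic libraries, against 0.174 and 0.106 CPM in controls, with B alone high (1.55, SE 1.11), and turned to -1.02 without B.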

How the data were processed

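The authors deposited, per the file headers, raw read counts and RPKM values of each gene in each of the 4 libraries. Per the submitters' processing notes, TopHat2 version 2, Bowtie version 1 and featureCounts version 1 were used on mm10/GRCm38. How strand and multi-mapping reads were handled, and with which annotation, is not given in the sources used here. Paralogs and overlapping genes may therefore share reads. These deposited RPKM values served only to compare levels between genes.

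Of all 43346 genes, filterByExpr (at least 10 counts, 15 in total) kept 20872 for the fit, with TMM scaling. The quasi-likelihood test of edgeR 4.0.16 in R 4.3.3 compared transgenic against control libraries, 2 per group, without covariates and with Benjamini-Hochberg adjustment over all genes tested (threshold 0.05). Each standard error was computed as the size of the fold change (log2) over the root of its F. The fit was tested on counts simulated with a dispersion set in advance. As it was not estimated from these libraries, that test does not measure the power reached here. DESeq2 1.42.0, limma-voom (limma 3.58.1) and other settings were alternatives. Lists are given by counts and medians, without a test. Shared 50-base stretches were counted over the GENCODE M21 transcripts, and promoters were aligned with Biopython 1.88.

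Members averaging at least 10 CPM, and those at 1 to 10 CPM whose groups do not overlap, are given for every library. From each other pathway list the 3 genes with the smallest p are given, and H2-Ea-ps, H2-Oa, H2-M3, Rfx5 and Ptprc were added after their values were seen. The members and lists were chosen with earlier results of these data known. Of the members, 13 were too low to be tested.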

Additional observations from a re-analysis of the deposited data

How the results depend on the processing

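No paired analysis was possible because the labels give the libraries letters and no shared replicate numbers. A term that sets B and D apart from E and F, taken from earlier results of these data and not from the labels, gave 0 calls and medians of 0.10 for class I, 0.23 for class II and 0.000661 for antigen processing, and reversed no named member. No member of any of the 3 classes was called under any setting, the lowest adjusted p of a named member being 0.353. Over the whole table the count of calls was 1 with DESeq2 and 0 to 15 with 1 library left out (2 without B, 15 without E, 0 without D, 5 without F). Of 390 values for 30 named members in 13 other settings, 365 kept their direction and 25 reversed, and 16 members reversed in none. Values moved by over 1.5 times, reversals included, for 28 of the 30 members with some library left out, for 28 with each library's Y-linked share in the fit and for 2 with the term for B and D. The class I median ran from 0.06 to 0.19 with 1 library left out, the class II median from 0.04 to 0.48 and the antigen processing median from -0.0413 to 0.0682. With each library's Y-linked share added to the fit, a term that itself separated the genotypes, these medians were 0.28, 0.68 and 0.0469. That term turned Tap1 to 0.29, H2-Q1 to 1.08, H2-Q10 to -0.11, Calr to 0.0249 and Ctss to -0.41. Psmb10 turned to -0.0016 with no filter and to -0.0019 with a filter of 1 CPM in 2 libraries. With 1 library left out, the log2 fold changes that reversed in at least 1 case ran from -0.0697 to 0.0692 (Psmb10), -0.14 to 0.22 (H2-Ke6), -0.0630 to 0.48 (H2-DMa), -0.13 to 0.11 (Tap1), -0.0830 to 0.0671 (Tap2), -0.0238 to 0.36 (H2-Ab1), -0.0029 to 0.45 (H2-Aa), -0.59 to 0.39 (H2-Q1), -0.0127 to 0.19 (H2-Q2), -0.0612 to 0.54 (H2-Q10), -0.75 to 0.12 (H2-T24), -0.0894 to 0.0707 (H2-T23), -0.0083 to 0.19 (H2-T10), -0.0483 to 0.36 (Cd74) and -1.02 to 2.44 (Ifng). The cause of these reversals was not tested. A lone library left in a group was assumed to vary like the other group.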
